A study of Mus musculus with 4 samples.

Results

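The regions described are 5 kb bins of the mouse genome that lay inside introns and were altered in mouse embryonic fibroblasts (MEFs) lacking LSH, but not in embryonic stem (ES) cells lacking it. Altered means that the authors listed the bin as differing in 5-hydroxymethylcytosine (5hmC) between LSH knockout and wild-type cells. The members were chosen by the 2 deposited lists themselves: a bin had to be on the MEF list, its own position had to be absent from the ES list, and it had to overlap a gene body but no exon and no sequence within 1 kb of a gene start. By this rule 2726 bins were members, out of 17111 bins on either list on chromosomes 1 to 19 and X. All 2726 had a usable reference sequence. Classing a bin by its midpoint, which admits bins that also hold exons, would give 4450.

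The series has 4 libraries enriched for 5hmC, 1 per group: ES-WT and MEF-WT with the genotype Wild type, and ES-KO and MEF-KO with the genotype LSH Knock out. ES cells were grown with serum and LIF and MEFs with serum alone. The 2 MEF libraries gave the MEF list, and the ES libraries enter only through the absence of a bin from the ES list. The labels name no ES line, knockout allele, mouse strain, passage or number of embryos. The lists hold positions only, so a member has no level, direction of change, fold or p-value, the read depth is unknown, and no value has a replicate error. No expression value was used, so the labelled cell types were not checked against marker genes. Intervals in brackets are exact 95% binomial intervals, which cover counting error over bins. Neighbouring bins are not independent of each other, and none of the differences between sets of bins was tested.

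5hmC is made from 5-methylcytosine by the TET enzymes, mostly at CpG dinucleotides, and is found in the bodies of transcribed genes and at enhancers, many of which lie in introns. Its amount and its places differ between cell types, and cultured cells generally hold less of it than tissues such as brain. LSH, encoded by Hells, is an SNF2-family chromatin remodeler that is needed for normal DNA methylation in the mouse embryo.

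The windows shown next come from 4 of the 10 longest runs of touching member bins. Each is the 300-base stretch with the most CpG dinucleotides within its run, read from the mm9 reference 5′ to 3′, and is shown because CpG is where 5hmC is mostly placed. Capitals mark CG.
Pdzd2, chr15:12480288-12480587, + strand: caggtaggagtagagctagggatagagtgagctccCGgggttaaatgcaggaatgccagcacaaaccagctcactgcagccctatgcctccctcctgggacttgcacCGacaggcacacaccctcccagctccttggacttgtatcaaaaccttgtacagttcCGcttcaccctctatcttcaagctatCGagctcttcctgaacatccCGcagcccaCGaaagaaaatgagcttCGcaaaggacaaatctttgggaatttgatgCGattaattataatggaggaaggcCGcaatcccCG
Plekha7, chr7:123366971-123367270, + strand: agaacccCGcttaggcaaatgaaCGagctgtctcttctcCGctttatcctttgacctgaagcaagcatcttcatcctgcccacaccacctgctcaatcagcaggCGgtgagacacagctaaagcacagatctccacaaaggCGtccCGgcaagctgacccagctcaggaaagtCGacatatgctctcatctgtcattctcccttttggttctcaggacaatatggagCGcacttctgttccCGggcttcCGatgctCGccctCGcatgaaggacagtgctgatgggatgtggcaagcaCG
Btbd9, chr17:30606427-30606726, + strand: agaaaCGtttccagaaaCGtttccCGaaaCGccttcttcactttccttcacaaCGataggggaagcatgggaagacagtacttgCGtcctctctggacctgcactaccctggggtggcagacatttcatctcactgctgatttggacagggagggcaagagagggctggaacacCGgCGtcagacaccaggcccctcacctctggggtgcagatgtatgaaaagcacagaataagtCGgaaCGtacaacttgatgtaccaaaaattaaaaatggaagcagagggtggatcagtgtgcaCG
Pdzd2, chr15:12363718-12364017, + strand: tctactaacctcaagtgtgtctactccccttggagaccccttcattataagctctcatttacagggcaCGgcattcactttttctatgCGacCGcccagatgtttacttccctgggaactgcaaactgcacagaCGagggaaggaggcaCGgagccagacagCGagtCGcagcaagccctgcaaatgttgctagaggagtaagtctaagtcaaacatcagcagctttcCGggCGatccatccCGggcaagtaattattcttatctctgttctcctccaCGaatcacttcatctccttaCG
These windows held 10 to 13 CpG each, at a GC content of 50% to 54.0%.

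Most members stood alone. The 2726 bins formed 2468 runs, of which 2245 were single bins and 194 were pairs. Of the members, 17.6% touched another member [16.2% to 19.1%]. Among the 1886 intron bins listed only in ES cells, 6.89% touched another bin of that set [5.79% to 8.13%], and the longest run had 3 bins. Exon bins of the MEF list touched 135 members and promoter bins 31.

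The longest run was 5 touching members in intron 5 of Ccbe1, which encodes a secreted protein needed for lymphatic vessel growth (chromosome 18, 66360001 to 66385000). It lay 79.9 to 99.9 kb from the gene start in an intron of 174977 bp. Runs of 4 members lay in intron 5 of Pdzd2, a gene for a protein with many PDZ domains (chromosome 15, 12480001 to 12500000), and in intron 1 of Prr5l, which encodes a binding partner of the mTOR complex (chromosome 2, 101690001 to 101710000). The other runs of 4 lay in intron 4 of Plekha7, an adherens junction gene (chromosome 7, 123360001 to 123380000), and in intron 7 of Btbd9 (chromosome 17, 30595001 to 30615000). Of the 24 runs of 3, those with most MEF-listed bins around them were a second one in Pdzd2, in intron 10 (chromosome 15, 12350001 to 12365000), and those in Shb, Auts2, Mtus1 and Arhgef3. Members cannot be ES-listed by the rule. The few other MEF-listed bins that extended some of these 10 runs were not on the ES list either, which is too few bins to read. The bins of the 10 runs had between 6.8 and 14.6 CpG per kb.

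Members were spread over 1459 genes, of which 913 held 1 member, 384 held 2 or 3 and 162 held 4 or more. The 162 genes held 35.8% of all members. Nearly all members (94.5%) had a protein-coding gene as their shortest host, as did 93.6% of all intron bins. A further 3.19% lay in lincRNA genes, and 61 members lay in more than 1 gene, 40 of them in genes on both strands. The background for every count per gene is the share of intron bins that were members, 2.47% of the 110290 intron bins with sequence. Over all bins of every class, 1.75% were on the MEF list, and 1.71% of intron bins were listed only in ES cells.

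The 20 genes with the most members were taken without gene models that hold 10 or more other genes, of which Gm20388 covered 57 members. At the last place 10 genes tied at 8 members, and the 2 with the highest share of their intron bins were kept. Several of the 20 have signalling roles. Prkce encodes protein kinase C epsilon, a kinase activated by diacylglycerol (chromosome 17, 86567125 to 87057259). It held 16 members among 82 intron bins, 9 of them in intron 3, together with 4 intron bins on both lists and 3 on the ES list alone. Of its 16 members, 11 did not touch an ES-listed bin. Cacna2d3, an auxiliary subunit gene of voltage-gated calcium channels (chromosome 14, 29718133 to 30535050), also held 16 members, over 10 introns and among 132 intron bins, with 1 ES-only bin. Efna5, which encodes the membrane-bound ligand ephrin A5 (chromosome 17, 62953533 to 63230666), held 9 of 51 and no ES-listed bin of any class. Arhgef3, a guanine nucleotide exchange factor gene (chromosome 14, 28051225 to 28217090), held 8 of 25, and Camta1, a gene for a calmodulin-binding transcription activator (chromosome 4, 150433633 to 151235985), held 9 of 130. Phactr2, of the phosphatase and actin regulator family (chromosome 10, 12933201 to 13194202), held 8 of 39.

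Matrix, adhesion and scaffold genes formed another group. Ext1, a polymerase gene of heparan sulfate (chromosome 15, 52895593 to 53177714), held 11 members among 47 intron bins, 7 of them in intron 1. Chst11, which sulfates chondroitin (chromosome 10, 82448243 to 82658645), held 9 of 37. In Cadm1, a cell adhesion molecule gene (chromosome 9, 47338256 to 47665720), all 10 members lay in intron 1. Ccbe1 (chromosome 18, 66204956 to 66462393) likewise held its 9 members in 1 intron and had 0 ES-listed bins. Pdzd2 (chromosome 15, 12286809 to 12669679) held 12 of 53, and Erc2, a scaffold gene of the presynaptic active zone (chromosome 14, 28435614 to 29291721), held 12 of 151. Placement therefore ranged from 1 intron, as in Cadm1, to 10, as in Cacna2d3.

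Transcription factor genes with many members were Pknox2, a TALE homeobox gene (chromosome 9, 36698570 to 36954899), with 10 of 42, Glis3, a zinc finger gene (chromosome 19, 28333341 to 28754567), with 10 of 71, and Nfib, a nuclear factor I gene (chromosome 4, 81936077 to 82351654), with 9 of 68. Wwox, a tumour suppressor gene at a fragile site (chromosome 8, 116963555 to 117876608), held 13 members among 164 intron bins and nearly as many ES-only intron bins, 10. The remaining genes of the 20 with the most members were 1700112E06Rik with 19 of 195 (chromosome 14, 22838934 to 23875307), the lincRNA gene Gm14005 with 11 of 35 (chromosome 2, 128021729 to 128255085), Enox1 with 10 of 90 (chromosome 14, 77556623 to 78121214) and Klhl29 with 9 of 50 (chromosome 12, 5084278 to 5382488). 1700112E06Rik also had 0 ES-listed bins. Together the 20 genes held 220 members, 8.07% of the total, and 5 of the 20 lie on chromosome 14.

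**Figure D1:**
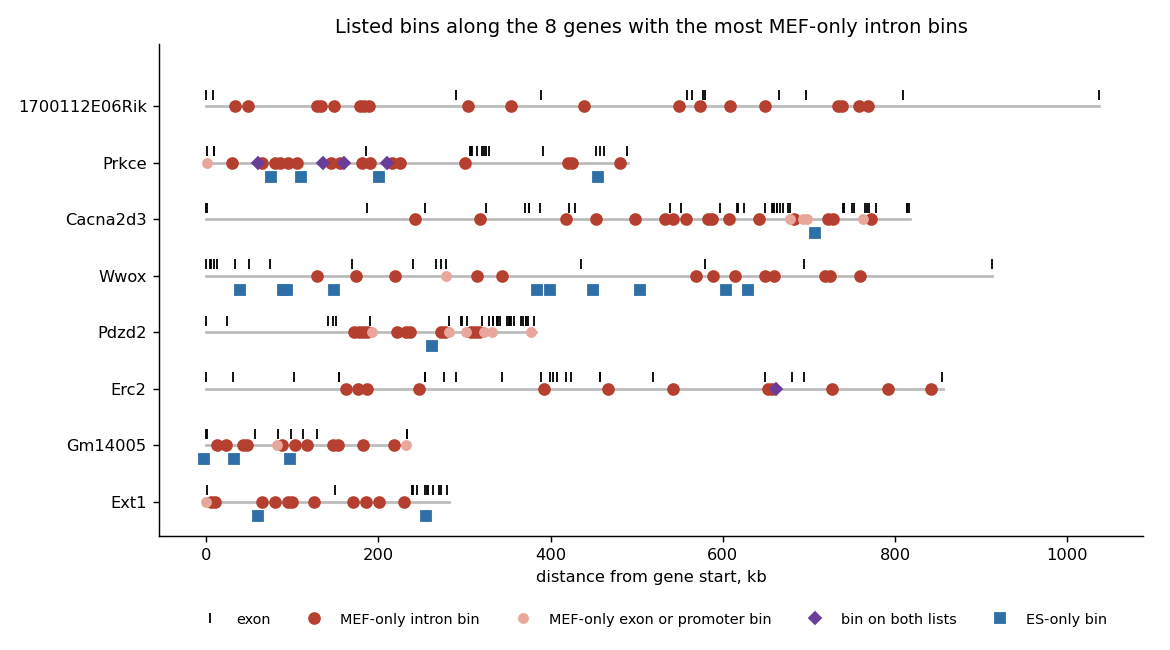
Listed bins along the first 8 of the 20 genes, with distance from the gene start in kb on the horizontal axis and 1 gene per row. Red circles are members, pale circles other MEF-only bins, diamonds bins on both lists, squares ES-only bins and black ticks exons. Members in Prkce lay mostly in its 5′ part among bins of both lists, those of Cacna2d3 started beyond 200 kb, and those of Wwox lay among ES-only bins.

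Each of the 20 genes had a higher member share than intron bins of like CpG density, as did the 8 tied genes left out, whose shares were 2.21 to 16.0 members per 100 intron bins. For this comparison all intron bins were put in 10 groups by CpG density, and a gene's bins were given the member share of their groups. Prkce had 19.5 members per 100 intron bins [11.6 to 29.7], against 5.52 for bins of the same CpG groups. Cacna2d3 had 12.1 [7.09 to 18.9] against 2.02, and 1700112E06Rik had 9.74 [5.97 to 14.8] against 2.29. The excess was small in Wwox, 7.93 [4.29 to 13.2] against 5.60, and in Camta1, 6.92 [3.21 to 12.7] against 5.43. The genes were picked for their counts, so these shares describe them and support nothing further.

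By share rather than count, shorter genes led, which the minimum of 4 members favours, since 4 of few intron bins is a high share. Over all intron bins, host genes under 25 kb had a member share of 2.16% and those of 100 to 200 kb 3.36%. Among genes with 4 or more members, Zfpm1, a GATA cofactor gene (chromosome 8, 124806039 to 124861146), had members in 4 of its 6 intron bins. Edar, the ectodysplasin receptor gene (chromosome 10, 58063537 to 58138402), had 5 of 10, all in intron 1. Lingo1 (chromosome 9, 56466282 to 56533060) and Rgs3, a regulator of G-protein signalling (chromosome 4, 62220881 to 62364052), had 4 of 8 each. Scara5, a ferritin receptor gene (chromosome 14, 66285240 to 66383663), had 5 of 11, and Nkd1, an inhibitor gene of WNT signalling (chromosome 8, 91045243 to 91118786), had 4 of 9. Ptk2b, a focal adhesion kinase family gene (chromosome 14, 66772094 to 66899889), had 6 of 17, all in intron 1, and Prr5l (chromosome 2, 101554442 to 101723184) had 7 of 21. Arhgef3 and Gm14005 completed the 10. The intervals of these shares were wide, 22.3 to 95.7 members per 100 intron bins in Zfpm1 and 16.9 to 49.3 in Gm14005. Of these 10 genes, which have 150 intron bins in all, 9 had no ES-only intron bin. Members cannot be ES-only by the rule, and only 13.8% of all genes with an intron bin had an ES-only one. In 6 of the 10 an ES-listed bin of some class lay in the gene body. With bins classed by midpoint, Rgs3 had 10 members and Nkd1 had 7.

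The longest gene models with no member included Dmd, the dystrophin gene, with 382 intron bins, Lrp1b with 346, Fhit with 306, Nrxn3 with 294, Csmd1 with 269, Il1rapl1 with 264, and Pcdh15 with 261. Nrxn3 and Il1rapl1 encode synaptic adhesion proteins and Pcdh15 a protocadherin. Taking 3 counts of the total as the limit that a count of 0 allows, the share could be up to 0.785% in Dmd and 1.15% in Pcdh15, and the exact intervals reached 0.961% and 1.40%. CpG density in their introns was low, with medians of 3.6 to 5 CpG per kb. Bins of the same CpG groups had member shares from 0.488% (Il1rapl1) to 1.12% (Csmd1). Of the genes named here, only Nrxn3 held an ES-listed bin, 1. Of 137 genes with 100 or more intron bins, 73 had no member and 93 had no ES-only intron bin.

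3 gene models held 10 or more other genes, so their members cannot be assigned to them alone. Gm20388 (chromosome 8, 122434741 to 126869622), which spans 84 other genes, covered 57 members, Fgfr2 covered 3 and Gm16736 covered 1. For 51 members such a model was the only host, and by the other gene models they would be intergenic.

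Gene lists by pathway and function were compared by the share of their intron bins that were members, beside 2.47% over all intron bins. Extracellular matrix genes had 29 of 431 intron bins as members, 6.73% [4.55% to 9.52%], against 2.41% in intron bins of the same CpG groups and 0.696% listed only in ES cells [0.144% to 2.02%]. Of 46 matrix genes, 33 had an intron bin and 16 had a member. Adamtsl1, of the ADAMTS-like family of secreted glycoproteins, held 8 members over 7 introns. Col4a2, a basement membrane collagen gene, held 4 of 15, next to 1 ES-only bin and 1 on both lists. The collagen genes Col8a1 and Col14a1 and the procollagen peptidase gene Adamts2 held 2 each. Without the 7 genes of the list that earlier results of these data had named, Adamtsl1 among them, the share was 5.41% [3.33% to 8.22%]. The matrix list ranked first by any overlap, but by midpoint WNT genes did, at 5.96% against 5.70%, and without earlier-named genes TGF-beta and BMP genes did, at 5.44%.

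WNT signalling genes had 32 of 493 intron bins, 6.49% [4.48% to 9.04%], against 3.44% at the same CpG density. Members lay in genes for receptors (Ror1 with 5, all in intron 1, and Ror2 with 3), for the secreted antagonist Sfrp1 (3 of 5 intron bins) and the inhibitor Nkd1 (4 of 9), for the agonist Rspo2 (3), for the transcription factor Tcf7l2 (3) and for Daam1 and Prickle2, of the planar cell polarity branch (3 each). Ror2 had as many ES-only bins as members, 3. The ES-only share of the list was 2.64% [1.41% to 4.47%], against 2.60% at the same CpG density. Without Sfrp1 and Nkd1, which earlier results had named, the share was 5.22% [3.41% to 7.61%].

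TGF-beta and BMP genes had 21 of 359 intron bins, 5.85% [3.66% to 8.80%], against 3.47% at the same CpG density. The co-receptor gene Tgfbr3 held 4, the effector gene Smad3 held 3 and the latent TGF-beta binding protein gene Ltbp1 held 3. Tgfbr2 and Acvr1, receptor genes, and Smad6, which encodes an inhibitory SMAD, held 2 each. The ES-only share of the list was 2.23% [0.967% to 4.34%], against 2.59% at the same CpG density. Without the 1 gene named in earlier results the member share was 5.44% [3.31% to 8.37%].

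Mesenchymal and developmental transcription factor genes had the most members of any list, 97 of 2176 intron bins or 4.46% [3.63% to 5.41%], in 31 of 54 genes with an intron bin. At the same CpG density the share was 3.45%. After Glis3 and Nfib came Zfhx3, Tshz2 and Bnc2 with 6 each, then Meis2 and Nfia with 5 each. Tshz2 held more ES-only intron bins, 7, than members. Of the intron bins of this list, 1.93% were listed only in ES cells [1.39% to 2.60%], against 2.58% at the same CpG density.

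Focal adhesion and actin cytoskeleton genes had 46 of 1103 intron bins, 4.17% [3.07% to 5.52%], against 2.95% at the same CpG density, with members in 20 of 40 genes. After Arhgef3 these were led by Dlc1, a GTPase-activating protein gene, with 5, and Synpo2, an actin-binding protein gene, with 4. The ES-only share of the focal adhesion list was 2.54% [1.69% to 3.65%], also above the 2.03% at the same CpG density. Calcium channel genes had 35 of 762, 4.59% [3.22% to 6.33%], but 16 of the 35 lay in Cacna2d3, and without it the share was 3.02% [1.83% to 4.67%], near the 2.88% of bins of the same CpG groups. In protein kinase C and cAMP genes, 29 of 1070 intron bins were members, 2.71% [1.82% to 3.87%], and 16 of these lay in Prkce. Without Prkce and Pde4d, both named in earlier results, the share was 1.40% [0.672% to 2.55%], against 2.86% at the same CpG density. Pde4d itself, a cAMP phosphodiesterase gene, held 3 members and 7 ES-only bins among 272 intron bins. For calcium channel genes the ES-only share was 1.18% [0.541% to 2.23%], against 1.86% at the same CpG density. For protein kinase C and cAMP genes it was 1.40% [0.787% to 2.30%], against 2.04%.

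Receptor tyrosine kinase genes had 16 of 975 intron bins, 1.64% [0.941% to 2.65%], below the 2.35% at their CpG density. All 16 lay in 5 genes, Ephb2 with 5, Egfr with 4, Igf1r with 3, and Met and Kit with 2 each. The ES-only share of the kinase list was 1.23% [0.638% to 2.14%], also below the 1.65% at the same CpG density. DNA methylation and chromatin remodelling genes had 11 of 296, 3.72% [1.87% to 6.55%], against 2.58% at the same CpG density, and 2.36% with bins classed by midpoint. There were 3 members in the SWI/SNF ATPase gene Smarca2, 2 each in Chd6 and Chd9, and 1 each in Tet1, Dnmt3b, Uhrf2 and Hdac4. Hells has no intron bin. Of the intron bins of the chromatin list, 2.03% were listed only in ES cells [0.747% to 4.36%], against 1.73% at the same CpG density. Neuronal adhesion and synapse genes had the lowest share of the lists with a member, 34 of 7804 or 0.436% [0.302% to 0.608%], against 1.09% at their CpG density, and Erc2 alone held 12 of the 34. Without Erc2 the share was 0.287% [0.180% to 0.435%]. The ES-only share of the neuronal list was 0.167% [0.0887% to 0.285%], also below the 0.602% at the same CpG density. Of 20 pluripotency genes, 5 had an intron bin, 46 bins in all, and none of these bins was a member. That allows a share of up to 6.52% by the limit of 3 counts (7.71% by the exact interval), above the 4.79% at the same CpG density. Listed only in ES cells were 2 of the 46 bins, 4.35% [0.531% to 14.8%], against 3.81% at the same CpG density.

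**Figure D2:**
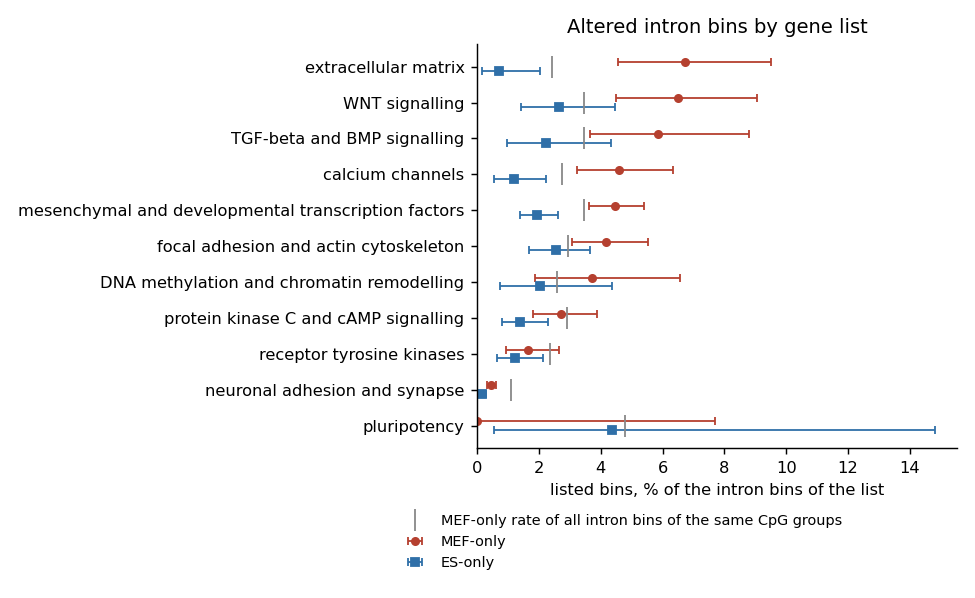
Share of the intron bins of each gene list that were altered, in percent, for MEF-only bins (red circles) and ES-only bins (blue squares), with exact 95% binomial intervals. Grey ticks give the MEF-only share of all intron bins of the same CpG groups. The matrix list had 6.73% in MEFs against 0.696% in ES cells, and the neuronal list had 0.436% against 0.167%.

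Members had more CpG than intron bins as a whole and a lower median than ES-only bins. Their median was 10.6 CpG per kb, against 7.2 in all intron bins, 11.6 in ES-only and 12.6 in the 128 intron bins on both lists. Median GC content was 44.8%, 41.4%, 45.6% and 46.7% in the same order. The member share was higher in each CpG group than in the one before it, from 0.115% in the lowest [0.0597% to 0.202%] to 6.20% in the highest [5.77% to 6.66%]. For ES-only bins the lowest group had 0.0577% and the highest 5.76%. In the group of middle density, the fifth, 1.60% were members [1.39% to 1.84%] and 0.673% were ES-only [0.537% to 0.833%]. All intron bins with sequence served as background, whether or not 5hmC could be measured in them.

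Repeated sequence was scarce in members. Sampled words of 32 bases were checked for further copies elsewhere in the genome. Bins with copies for at least 20% of their words made up 3.45% of members [2.80% to 4.20%] and 17.4% of all intron bins. The same share, 3.45%, was found for ES-only bins. Reads from such bins are hard to place, and their part in the result was not tested.

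Short sequence motifs were counted on both strands as a further description. CAGCTG, an E-box, occurred 5.44 times per 10 kb in members and 4.04 times in all intron bins, and was present in 91.3% of members and 81.2% of all intron bins. Within the highest CpG group the frequencies were 6.44 and 5.71, and ES-only bins, at 5.34 overall and 5.99 in that group, were also above the background. GGAATG, the core of TEAD sites, occurred 6.24 times per 10 kb in members, 5.91 in ES-only bins and 5.92 in all intron bins, of which 94.0% held it. TGANTCA, with any base at N, is a wider pattern than the AP-1 site it includes. It occurred 3.37, 3.18 and 3.24 times in the same order, and TGTGGTT, a RUNX site, 2.56, 2.79 and 2.51 times. These were held by 79.1% and 70.2% of all intron bins. CCGG, which overlaps CpG, occurred 7.44 times in members and 5.33 times in all intron bins, of which 83.9% held it. In the highest CpG group the order was the reverse, 12 and 13.3.

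Members were also described by their place in the gene. Each member lies wholly inside an intron by the rule, so introns shorter than a bin can hold none. The median member was 63.4 kb from the start of its shortest host gene, against 89.6 kb for all intron bins and 48.5 kb for ES-only bins. The member share was highest within 5 kb, at 3.46% [2.72% to 4.34%]. From 5 to 100 kb the member share varied little, between 2.88% and 3.12%, and it was 1.54% beyond 200 kb [1.41% to 1.68%]. The ES-only share was 2.26% within 5 kb [1.67% to 3%], 3.08% at 5 to 10 kb [2.67% to 3.53%], 1.92% at 50 to 100 kb [1.73% to 2.12%] and 0.844% beyond 200 kb. CpG density also declined over these distances, and bins of the same CpG groups had member shares of 2.93% at 5 to 10 kb and 1.94% beyond 200 kb.

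Intron 1 held 849 members, 31.1% of all. With gene models that hold 10 or more other genes left out, it held 798 of 2675, 29.8%. The member share was 3% in intron 1 [2.81% to 3.21%] and 2.29% in later introns [2.19% to 2.39%]. ES-only bins had 2.15% [1.99% to 2.33%] and 1.56% [1.47% to 1.64%]. Within CpG groups the member share was higher in intron 1 in the upper groups, 5 to 10, with 6.90% [6.09% to 7.79%] and 5.90% [5.39% to 6.43%] in the highest. In groups 1 to 4 it was lower in intron 1, with 0.713% [0.423% to 1.12%] and 0.962% [0.763% to 1.20%] in the fourth. In the third it was nearly equal, 0.570% and 0.576%. The intervals of intron 1 and later introns overlapped in every group but the sixth. By intron length the share peaked in introns of 20 to 50 kb, at 3.12% [2.93% to 3.33%], and was 1.99% in those under 10 kb and 1.40% in those over 200 kb. ES-only bins had 2.20%, 2.15% and 0.685% in introns under 10 kb, of 20 to 50 kb and over 200 kb. Host genes of 100 to 200 kb had the highest member share, 3.36% [3.13% to 3.6%], against 2.86% at the same CpG density.

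**Figure D3:**
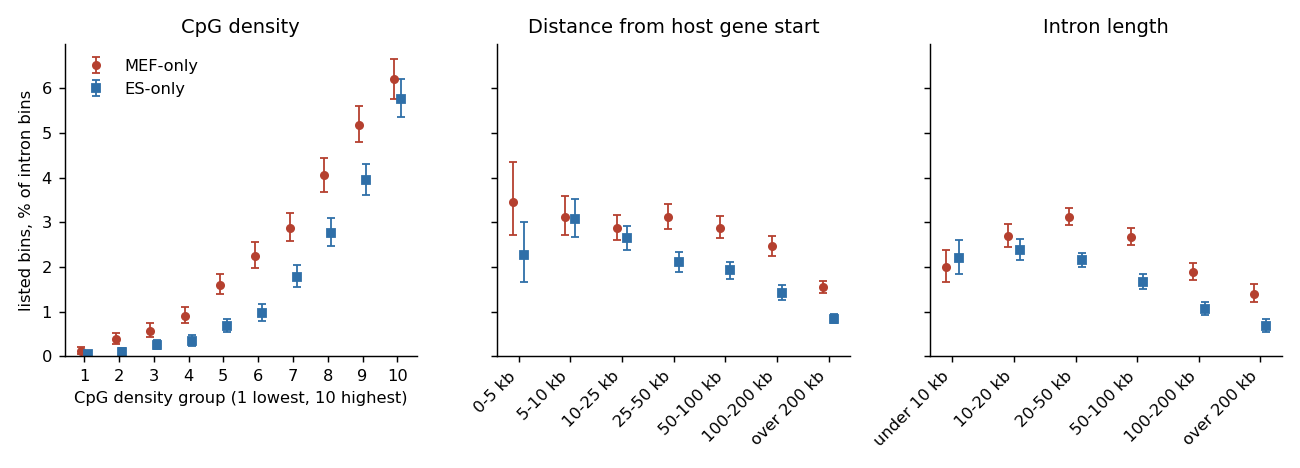
Share of intron bins that were MEF-only (red circles) or ES-only (blue squares), in percent with exact 95% binomial intervals, by CpG density group, distance from the host gene start and intron length. Both shares were highest at the highest CpG density, 6.20% and 5.76%, and the MEF-only share was 2.88% at 50 to 100 kb, where the ES-only share was 1.92%.

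By chromosome, the member share was highest on chromosome 19, where 146 of 2820 intron bins or 5.18% were members [4.39% to 6.06%]. Chromosomes 15 and 17 followed, with 3.99% [3.42% to 4.63%] and 3.97% [3.37% to 4.63%]. Among the autosomes the lowest shares were 1.24% on chromosome 12 [0.941% to 1.61%], 1.35% on 13 and 1.42% on 3, and the X chromosome had 12 of 5882, 0.204% [0.105% to 0.356%]. Intron bins of the same CpG groups had 3.01% on chromosome 19, 2.63% on 15, 2.47% on 12 and 1.03% on X. Chromosome 14 held 178 members but 59 ES-only intron bins, 3.07% against 1.02% [0.776% to 1.31%]. The intergenic MEF-only bins had their highest shares on the same chromosomes as the members, 3.14% of intergenic bins on 19 [2.69% to 3.65%] and 2.39% on 15 [2.12% to 2.69%], and their lowest on X, 0.129%. The high shares on 19 and 15 and the low share on X were thus present in both classes of bin. ES-only intron bins were also scarce on X, 0.017% [0.00043% to 0.0947%]. They made up 2.38% on 19 [1.85% to 3.01%] and 1.70% on 15 [1.33% to 2.14%], beside 1.71% of all intron bins.

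**Figure D4:**
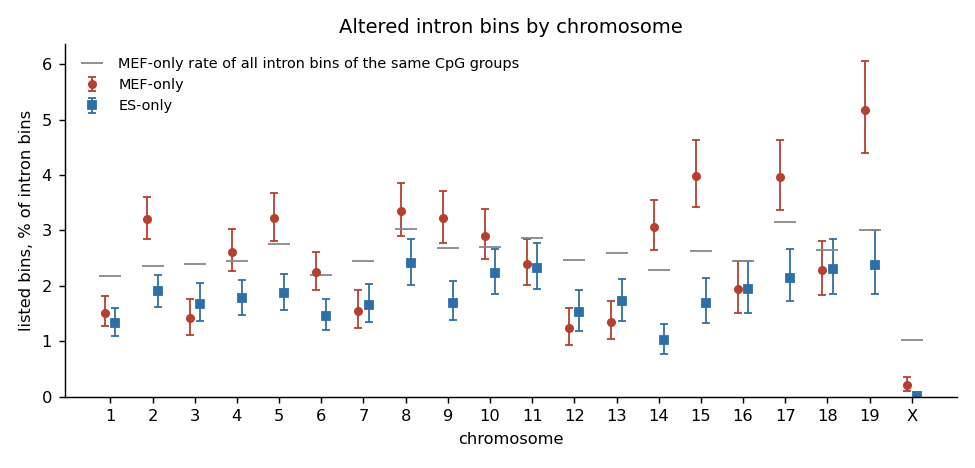
Share of intron bins that were MEF-only (red circles) or ES-only (blue squares) on each chromosome, in percent with exact 95% binomial intervals. Grey bars give the MEF-only share of all intron bins of the same CpG groups. Chromosome 19 had the highest MEF-only share, 5.18%, and chromosome X the lowest, 0.204%.

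Within chromosomes, members were dense in some stretches of 10 Mb. Of 263 such windows with 100 or more intron bins, 26 had a member share of 5% or more and 23 had no member. The highest share was at the end of chromosome 5, from 150000001, where 11 of 116 intron bins were members, 9.48% [4.83% to 16.3%]. On chromosome 14, from 20000001 to 30000000, 64 of 722 intron bins were members, 8.86% [6.89% to 11.2%], against 2 ES-only bins. That window takes in 1700112E06Rik, Arhgef3, Erc2 and part of Cacna2d3. The window on chromosome 17 from 80000001 to 90000000, which holds Prkce, had 35 of 441, 7.94% [5.59% to 10.9%], and that on chromosome 2 from 100000001 to 110000000, which holds Prr5l, had 34 of 475, 7.16% [5.01% to 9.86%].

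Absence from the ES list was decided bin by bin, so members could lie beside an ES-listed bin. Of the members, 214 touched one, 7.85% [6.87% to 8.92%], against 3.76% of all intron bins. By CpG density the shares were 3.18% [1.70% to 5.37%] and 1.10% in groups 1 to 5. In groups 6 to 9 they were 7.20% [5.98% to 8.58%] and 5.38%, and in the highest group 12% [9.68% to 14.6%] and 9.99%. The nearest ES-listed bin was a median of 55 kb away from members and 170 kb from all intron bins. Of the 1459 host genes, 489 also had an ES-only intron bin, 33.5%, beside 13.8% of all genes with an intron bin. These 489 were 36.3% of the 1346 genes with an ES-only intron bin, while 1459 of all 9724 genes with an intron bin hosted a member. No ES-listed bin lay in the gene body of 673 host genes, 46.1%, beside 69.7% of all genes with an intron bin. Genes with more intron bins have more room for listed bins of either kind, and gene size was not matched in these shares.

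At the edge of the rule, 78 members had an exon within 250 bp of the bin, the nearest being 1 bp away in Rasgrp3 (chromosome 17, 75865001 to 75870000). Just outside it, 781 of 1783 exon bins on the MEF list alone overlapped 250 bp of exon or less, down to 6 bp in Apbb2 (chromosome 5, 66710001 to 66715000). The median distance from a member to the nearest exon was 7603 bp.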

How the data were processed

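DNA of ES-WT, ES-KO, MEF-WT and MEF-KO cells was extracted with a column kit, enriched for 5hmC and made into libraries with a ChIP kit, per the labels' protocols; the enrichment method is not stated there. BWA and SAMtools 1.3.1 are named with build mm9, per the submitters' processing notes. How reads were counted, which caller and threshold were applied and whether there was an input library: not given in the sources used here. Deposited values are other than measured levels: start and end positions of 5 kb bins that the authors called different between genotypes. Depth is unknown.

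Bin numbers of all 8972 MEF and 8545 ES bins on chromosomes 1 to 19 and X equalled those counted on the reference NCBIM37 (mm9). Positions are printed 1-based. Genes were 26031 protein-coding, lincRNA and processed transcript models of GENCODE M1. A bin had 1 class: promoter (1 kb either side of a gene start), exon, intron or intergenic. Introns are gaps between merged exons of all transcripts, numbered from the 5′ end. A bin was dropped where more than 50% of its bases are undetermined. Repeats were measured as 32-base words, sampled 1 in 64, that recur in the genome. Genes named are the 20 with most members (ties by share; models holding 10 or more other genes apart), the 10 with the highest share among genes with 4 or more, hosts of the 10 longest runs, up to 6 leading genes per list (with ties), and genes without a member. All 436 list symbols were found in the annotation, by name or through RefSeq synonyms. The members and the 11 lists were chosen with earlier results of these data known. No test was run. Alternatives were class by bin midpoint, other gene sets, promoters of 2 kb, neighbouring ES bins and repeats. The classes of 400 random bins equalled those of a direct scan of the annotation. Software was matplotlib 3.10.9, numba 0.67.0, numpy 2.4.6, pandas 2.3.3, scipy 1.17.1 and Python 3.11.15.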

Additional observations from a re-analysis of the deposited data

How the results depend on the processing

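The class rule moved the results most. When a bin was classed by its midpoint in place of any overlap, MEF-only intron bins numbered 4450 and their host genes 2456. Of these bins, 25.5% lay in intron 1, 79.5% were above the median CpG density of intron bins (83.6% by any overlap) and 19.8% touched another one. Rgs3 then had 10 members and Nkd1 had 7. The results given next stayed within their interval or within 1.5 times their count. The share of DNA methylation and chromatin genes was 2.36%, against 3.72%, and the chromosome 19 share was 5.30%. A member lay in 170 genes of the 11 lists, against 131. The same limits held for 7 main results under the other 5 alternatives (protein-coding genes, wide gene models left out, no ES-listed bin next to a member, promoters of 2 kb, repeated bins left out). The 7 were the counts of bins, of host genes and of list genes with a member, and 4 shares. These shares were those in intron 1, above the median CpG density, touching another member and on chromosome 19. With no ES-listed bin next to a member, the protein kinase C and cAMP share was 2.06%. Leaving out of each list the genes named in earlier results, an alternative chosen after seeing the data, moved the protein kinase C and cAMP share to 1.40%, the calcium channel share to 3.02% and the neuronal share to 0.287%. No paired analysis was possible because each group has 1 library and the lists hold no value per library. A stricter threshold could not be tried, since the bins carry no score. Which of these bins gained or lost 5hmC, and how that varies between cultures, was not measured here.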

Other observations

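A microRNA gene overlapped 6 members, 0.220% [0.0808% to 0.478%], against 0.244% of all intron bins. Mir694 lay within the run of 5 members in Ccbe1 (chromosome 18, 66378918 to 66378987), Mir341 in an intron of Rian (chromosome 12, 110849710 to 110849805) and Mir1935 in an intron of Bcas3 (chromosome 11, 85336223 to 85336282). Pseudogenes overlapped 14 members, 0.514% [0.281% to 0.860%], and 1.03% of all intron bins.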
